A study of Caenorhabditis elegans with 2 samples.

Results

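The cytochrome P450 (cyp), glutathione S-transferase (gst) and UDP-glycosyltransferase (ugt) genes of Caenorhabditis elegans were examined in the germline tissue of worms with a broken X chromosome. Members were all genes whose name in the deposited table starts with cyp-, gst- or ugt-, which gave 190 of the 46739 genes listed, with 81 cyp, 44 gst and 65 ugt genes. The worms were YBT7, which carries the alleles deg-1(huj32) and linc-20(huj2) and the rearrangement hujCf1, in which CRISPR cuts near deg-1 and linc-20 separated the X chromosome into an internal segment and a linear segment made of both ends. They were set against the wild type N2 (WT), and both strains were adults from solid media whose gonads were dissected by hand a day after the L4 larval stage. YBT7 is 1 engineered strain, the cuts and deletions come together in it, and dissected gonads went into 1 RNA-seq library per strain. There was therefore no replicate, no test between strains was possible, and each interval below covers the counting of reads only, not variation between worms or dissections. Genes were set to the internal or linear segment by the deletion borders of the study's methods.

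The YBT7 library held 4525439 counts over 14188 genes and the WT library held 2873065 counts over 12356 genes, so that 3 counts, used as the detection floor, equal 0.663 CPM in YBT7 and 1.04 CPM in WT (counts scaled to a common library total). The deleted linc-20 had 0 counts in YBT7 and 4 in WT, and deg-1 had 3 in YBT7 and 1 in WT, which is too few to check a label. The source label of the YBT7 sample also holds the words wild type, whereas its title and genotype name YBT7. Germline markers were abundant in both libraries, with 8 of 8 genes above the limit for measurement given below and summed levels of 1822 CPM in YBT7 and 2309 CPM in WT. Of 5 somatic gonad markers 2 were measured, and lag-2, the marker of the distal tip cell, was at 0 in both libraries. Markers of tissues outside the gonad were also present and differed between the libraries. The 15 intestine markers summed to 10954 CPM in YBT7 and 961 CPM in WT, and ges-1 and elt-2, which define the intestine, had 15 and 11 counts in YBT7 and 0 in WT.

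The 3 families carry out the first and the second step of the classic route by which animals clear foreign and waste lipophilic compounds. P450 enzymes, which draw electrons from a reductase, insert oxygen into such molecules, after which glutathione transferases couple them to glutathione and UDP-glycosyltransferases couple them to a sugar. In worms these genes are best known from the intestine, where many are switched on by toxins, while a few P450 enzymes serve development, among them the CYP-31A enzymes that make lipids for the eggshell in the gonad.

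Most members were rare in gonad RNA. No read was counted in either library for 44 members, of which 25 were cyp, 8 gst and 11 ugt genes. Of the 146 members with a count in at least 1 library, 112 (76.7%) had the higher normalized count in YBT7 and 34 the lower, beside 8281 of 15474 genes with a count in the whole table (53.5%). Normalized counts are raw counts divided by a size factor for depth, 1.22 for YBT7 and 0.816 for WT. The YBT7 side held 48 of 54 detected ugt genes (88.9%), 40 of 56 cyp genes (71.4%) and 24 of 36 gst genes (66.7%). Of the 146 members with a count, 52 had reads only in YBT7 and 9 only in WT. None of those 9 had more than 2 counts in WT. Over all 15474 genes with a count, reads were found only in YBT7 for 3118 and only in WT for 1286. The YBT7 library is deeper, so that a rare transcript had more chances to be seen in it. Within bulk RNA, fewer cells of a type and less RNA per cell cannot be told apart.

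A gene was taken as measured when the mean of its normalized counts was above 5, and as called higher or lower when its log2 fold change also exceeded 5 divided by the square root of that mean, plus 1. By this rule of the study's methods, 20 of the 52 measured members were called higher in YBT7 (38.5%) and 0 lower. Over all 8618 measured genes 823 were called higher (9.55%) and 108 lower (1.25%). The called members comprised 7 of 16 measured cyp genes, 6 of 18 gst genes and 7 of 18 ugt genes. All 20 were close to the floor in WT, at 0 to 8 counts, with 4 of them at 0 and 12 at 1 or below, against 13 to 78 counts in YBT7. A member absent from WT reached the measured set only through its YBT7 counts and then had to differ, so the share of measured members called is a description and not evidence about the families. Low counts weigh on the background too, since among the 3294 genes with a mean of 5 to 50 the rule called 563 higher (17.1%), beside 20 of 45 members in that range (44.4%). Among the 4456 genes with a mean above 100 it called 164 higher (3.68%) and 0 of 7 members. The remaining 138 members were not measured. Together they held 304 counts in YBT7 and 72 in WT, 2.81-fold after depth scaling (95% counting interval 2.17 to 3.69), beside 1.5-fold (1.46 to 1.54) over all 38121 genes below the limit.

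**Figure D1:**
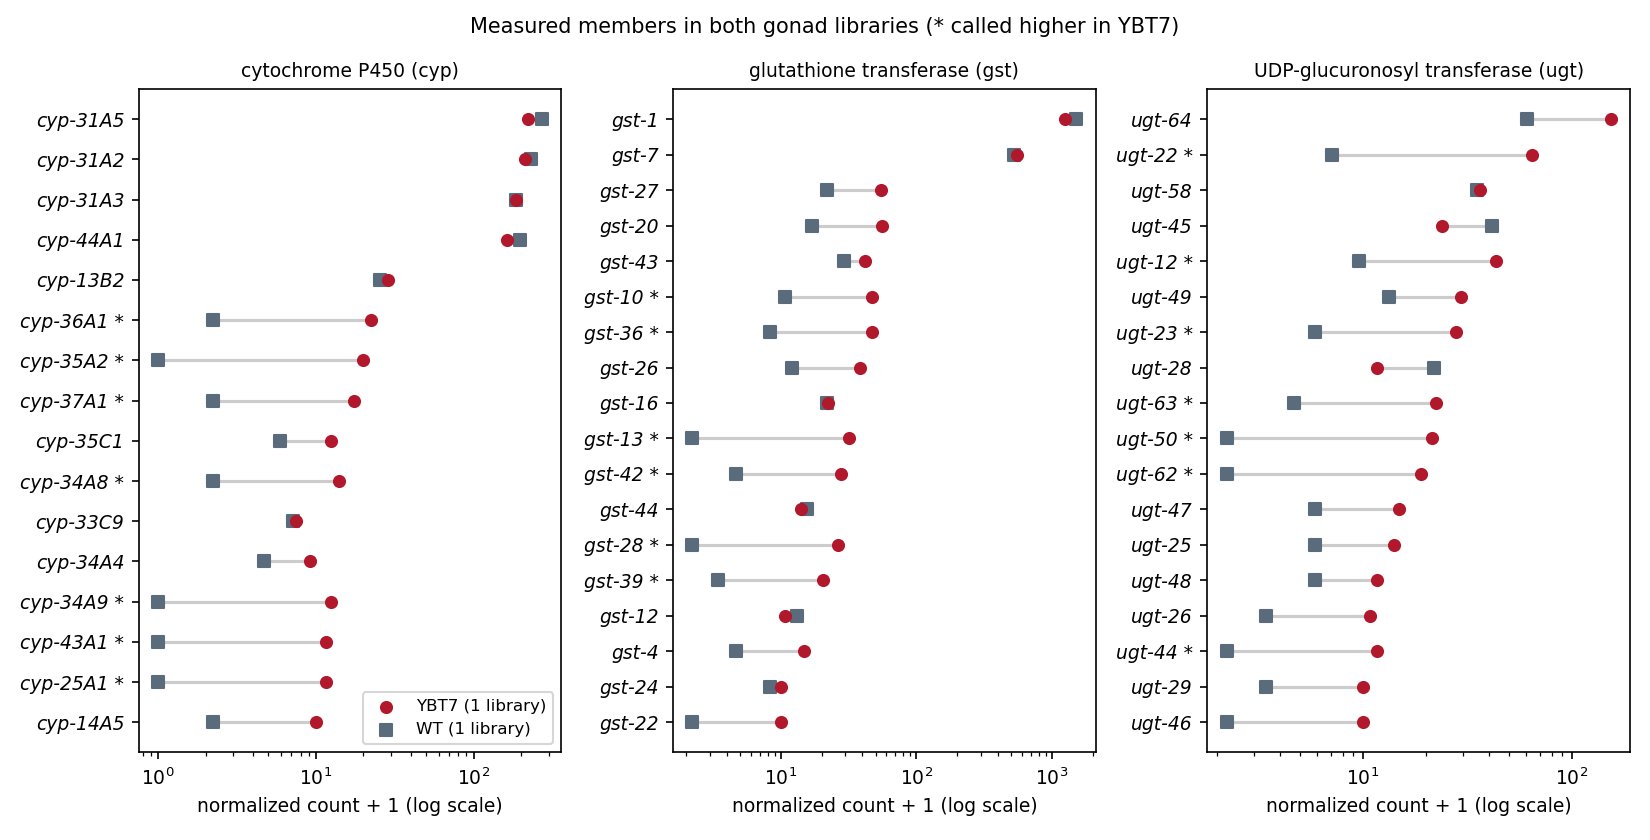
Normalized counts plus 1 (log axis) of the 52 measured members, with 1 panel per family and genes ordered by mean; red circles are the YBT7 library, grey squares the WT library, and a star marks the 20 members called higher. The starred genes lie at 0 to 8 raw counts in WT, while the abundant members at the top of the cyp and gst panels have nearly the same position in both libraries.

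The P450 genes divided into a few abundant members at similar levels in both gonads and many that were nearly undetected in WT. Of all 1249 cyp counts in YBT7, 76.0% came from 4 genes, and of the 784 cyp counts in WT, 91.5% did. These were cyp-31A5, cyp-31A2, cyp-31A3 and cyp-44A1. As a whole the family took 0.0276% of the YBT7 counts (95% exact binomial interval 0.0261 to 0.0292) and 0.0273% of the WT counts (0.0254 to 0.0293), which overlap. The 77 other cyp genes held 300 counts in YBT7 and 67 in WT, a ratio of 2.99 (2.28 to 3.95).

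The cyp-31A genes are the P450 genes of the eggshell. CYP-31A2 and CYP-31A3 act together in making the lipid layer that seals the embryo, and they are close copies, so reads that fit more than 1 of them are left out by the counting that was used and their single values are uncertain. On chromosome IV, cyp-31A5 (13401306 to 13403831) had 269 counts in YBT7 and 221 in WT, a ratio of 0.811 (0.677 to 0.974). The gene cyp-31A2 (IV, 11403961 to 11406058) had 257 and 187 counts in YBT7 and WT, a ratio of 0.916 (0.756 to 1.11). The third, cyp-31A3 (IV, 4761060 to 4762856), had 226 and 150 counts in YBT7 and WT, a ratio of 1.0 (0.814 to 1.24). Only the interval of cyp-31A5 excludes 1, and none of these genes was called. The subfamily, with the pseudogene cyp-31A1 at 1 count in YBT7 and 4 in WT, summed to 753 counts in YBT7 and 562 in WT, a ratio of 0.893 (0.80 to 0.998). The mitochondrial P450 gene cyp-44A1 (II, 5503966 to 5506115) had 197 counts in YBT7 and 159 in WT, a ratio of 0.826 (0.667 to 1.02). It shares 24 exonic bases with ZK177.4 on the same strand, which had 194 counts in YBT7 and 179 in WT.

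The 7 cyp genes called higher lay on 5 chromosomes and none exceeded 1 count in WT. Among those with a read in WT was cyp-36A1 (I, 8341709 to 8346023), which is known from the response to low oxygen, where it acts in neurons downstream of EGL-9 and HIF-1. It had 26 counts in YBT7 and 1 in WT, a ratio of 17.3 (2.85 to 711). A stretch of 147 exonic bases overlaps C34B7.2 on the other strand, which had 73 and 61 counts in YBT7 and WT and was not called. Likewise cyp-37A1 (II, 14013821 to 14016964) had 20 counts in YBT7 and 1 in WT, a ratio of 13.3 (2.13 to 553). The intestinal cyp-35A2 (V, 7362316 to 7364204), strongly induced by xenobiotics and tied to fat storage, had 23 counts in YBT7 and 0 in WT. It was 5.11-fold higher when WT is set at the floor of 3 counts, and its counting interval had a lower limit of 3.83. Folds against this floor and ratios to 1 WT read are on different footings and were not ranked. In the same way cyp-34A9 (V, 3968133 to 3970514), with 14 counts in YBT7 and 0 in WT, was 3.11-fold higher (lower limit 2.21). The genes cyp-25A1 (III, 3832600 to 3834589) and cyp-43A1 (X, 5714279 to 5717577) each had 13 counts in YBT7 and 0 in WT. Against the floor both were 2.89-fold higher (lower limit 2.03). In cyp-43A1, 25 exonic bases overlap C41G11.1 on the other strand, which had 29 counts in YBT7 and 1 in WT and was called higher. The called neighbour of cyp-34A9, cyp-34A8, had 16 counts in YBT7 and 1 in WT, a ratio of 10.7 (1.66 to 447). These upper limits are wide because 1 read in WT sets them.

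Whole P450 subfamilies showed the same division. The cyp-35A genes summed to 30 counts in YBT7 and 2 in WT over 5 genes, a ratio of 10 (2.54 to 86.4), and cyp-35A1, cyp-35A3 and cyp-35A4 were at 0 in both. The 10 cyp-34A genes summed to 46 and 8 counts in YBT7 and WT, a ratio of 3.83 (1.79 to 9.40), with reads concentrated in cyp-34A8, cyp-34A9 and cyp-34A4, the last at 10 counts in YBT7 and 3 in WT. The 5 cyp-14A genes summed to 21 counts in YBT7 and 2 in WT, a ratio of 7 (1.71 to 61.6), and the 6 cyp-25A genes to 18 in YBT7 and 0 in WT. For the 11 cyp-33C genes, at 26 counts in YBT7 and 11 in WT, the interval of the ratio holds 1 (1.58, 0.752 to 3.53). It also holds 1 for the 12 cyp-13A genes, at 11 counts in YBT7 and 3 in WT (2.44, 0.646 to 13.6). A difference in these subfamilies was not detectable at this depth.

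**Figure D2:**
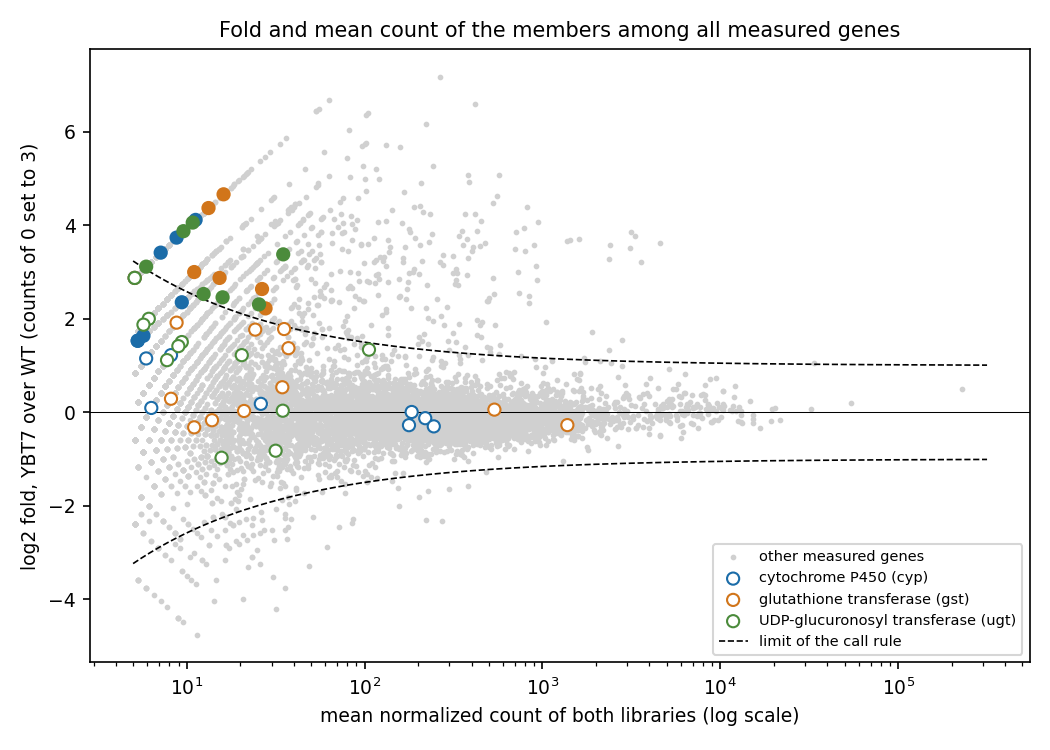
Log2 fold of YBT7 over WT against the mean normalized count (log axis) for all 8618 measured genes (grey) and the 52 measured members (coloured by family, filled where called higher), with counts of 0 set to the floor of 3 counts and dashed lines at the limits of the call rule. Filled members lie at means below 50, some of them under the line only because their WT count of 0 is drawn at the floor, and the 7 members with means above 100 are open and, apart from ugt-64, close to 0.

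Glutathione transferases were the most abundant of the 3 families, because of 2 genes. The family had 2816 counts in YBT7, 0.0622% of the library (0.0599 to 0.0646), and 1817 in WT, 0.0632% (0.0604 to 0.0662). Of these counts gst-1 and gst-7 held 78.2% in YBT7 and 91.6% in WT. The pi-class enzyme gene gst-1 (III, 9058904 to 9060183) had 1532 counts in YBT7 and 1235 in WT, a ratio of 0.827 (0.767 to 0.892). Its counting interval lies wholly below 1, but the gene was not called. The gene gst-7 (II, 4882071 to 4883361) had 671 and 430 counts in YBT7 and WT, a ratio of 1.04 (0.920 to 1.18). The 42 other gst genes held 613 counts in YBT7 and 152 in WT, a ratio of 2.69 (2.25 to 3.23).

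Among the 6 gst genes called higher, gst-13 (II, 9231497 to 9232341) had the largest fold, with 38 counts in YBT7 and 1 in WT and a ratio of 25.3 (4.28 to 1027). A pair of neighbours on the same chromosome were called as well. They were gst-28 (15166195 to 15167406), with 31 and 1 counts in YBT7 and WT and a ratio of 20.7 (3.44 to 842), and gst-39 (15171151 to 15171912), with 24 in YBT7 and 2 in WT and a ratio of 8 (1.99 to 69.8). On chromosome V, gst-10 (2561690 to 2564708), whose enzyme conjugates the lipid peroxidation product hydroxynonenal, had 56 counts in YBT7 and 8 in WT, a ratio of 4.67 (2.21 to 11.3). The remaining pair is X-linked. The gene gst-36 (9861650 to 9862955) had 56 counts in YBT7 and 6 in WT, a ratio of 6.22 (2.69 to 17.7). The gene gst-42 (11726270 to 11727897), for the maleylacetoacetate isomerase of tyrosine breakdown rather than a detoxifying enzyme, had 33 and 3 counts in YBT7 and WT, a ratio of 7.33 (2.30 to 37.4).

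Several gst genes had more reads in YBT7 without passing the limit. The most used reporter of SKN-1 activity, gst-4, had 17 counts in YBT7 and 3 in WT, a ratio of 3.78 (1.09 to 20.1), and 65 of its exonic bases lie in dhs-12 on the same strand, which had 524 counts in YBT7 and 509 in WT. Counts were 66 in YBT7 and 17 in WT for gst-27, a ratio of 2.59 (1.5 to 4.71), 67 in YBT7 and 13 in WT for gst-20 (3.44, 1.88 to 6.79) and 46 in YBT7 and 9 in WT for gst-26 (3.41, 1.65 to 7.92). By contrast gst-16 had 26 counts in YBT7 and 17 in WT (1.02, 0.533 to 2.0), and gst-12 had 12 in YBT7 and 10 in WT (0.80, 0.317 to 2.07). Both of these intervals hold 1.

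Position within chromosome II showed this spread, since 25 of the 44 gst genes lie there and 22 of them in 3 clusters, defined by gaps of at most 20 kb. The gst-6 to gst-9 cluster (4879885 to 4893574) had 683 counts in YBT7 and 432 in WT, a ratio of 1.05 (0.933 to 1.19), nearly all from gst-7. The cluster of 9 genes with gst-20 to gst-18 (13608185 to 13630887) had 118 and 49 counts in YBT7 and WT, a ratio of 1.61 (1.14 to 2.29), with no gene called. The cluster of 9 genes with gst-26 to gst-35 (15163808 to 15185385) had 172 counts in YBT7 and 34 in WT, a ratio of 3.37 (2.32 to 5.03), with gst-28 and gst-39 called. Of all measured genes of chromosome II, 7.29% were called higher. Neighbouring copies share sequence, and their single counts depend on which reads could be placed.

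**Figure D3:**
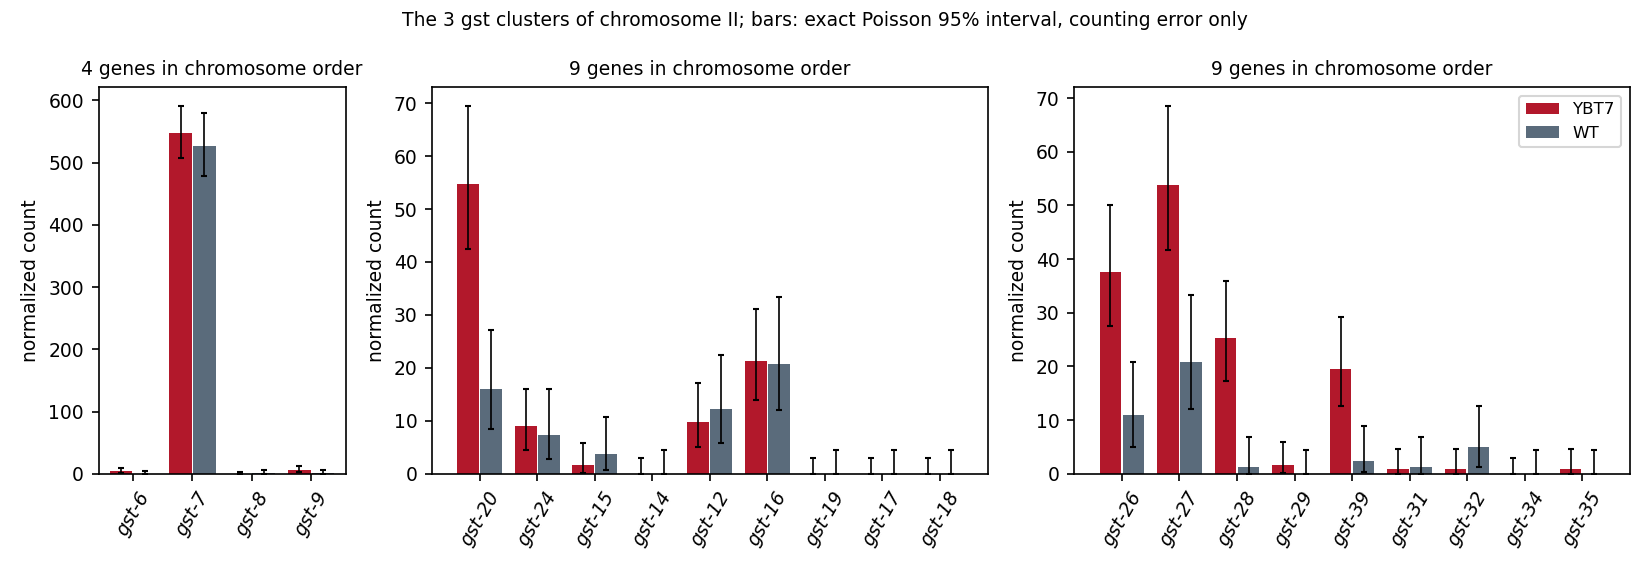
Normalized counts of the gst genes in the 3 clusters of chromosome II, in chromosome order, with YBT7 in red left of WT in grey and bars for exact Poisson 95% intervals (counting error only). The gst-6 to gst-9 panel is filled by gst-7 at similar height in both libraries, while in the gst-26 to gst-35 panel the red bars of gst-26, gst-27, gst-28 and gst-39 stand above the grey ones.

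The ugt genes differed as a family total, with similar ratios for the most abundant member and for the others. They held 787 counts in YBT7, 0.0174% of the library (0.0162 to 0.0186), and 197 in WT, 0.00686% (0.00593 to 0.00788), a ratio of 2.66 after depth scaling (2.28 to 3.13). The most abundant member, ugt-64 (V, 3503130 to 3506352), had 186 counts in YBT7 and 49 in WT, a ratio of 2.53 (1.84 to 3.54). Its interval lies above 1, but the fold did not reach the limit of the call rule. The 64 other ugt genes held 601 and 148 counts in YBT7 and WT, a ratio of 2.71 (2.26 to 3.26), close to that of ugt-64.

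Of the 7 ugt genes called higher, ugt-22 (IV, 13639266 to 13644401) had the most reads, with 78 counts in YBT7 and 5 in WT and a ratio of 10.4 (4.27 to 32.9). The genes ugt-62 (III, 4537277 to 4540637) and ugt-50 (X, 12691610 to 12695657) had 22 and 25 counts in YBT7 and 1 each in WT, ratios of 14.7 (2.37 to 605) and 16.7 (2.73 to 684). On chromosome V, ugt-12 (4887173 to 4889616) had 52 counts in YBT7 and 7 in WT, a ratio of 4.95 (2.24 to 12.9), and ugt-63 (5108015 to 5110789) had 26 counts in YBT7 and 3 in WT, a ratio of 5.78 (1.77 to 29.8). The X-linked ugt-23 (9922903 to 9925116) had 33 and 4 counts in YBT7 and WT, a ratio of 5.5 (1.96 to 21.4), and ugt-44 (IV, 10469763 to 10471890) had 13 in YBT7 and 1 in WT, a ratio of 8.67 (1.30 to 368). When a pseudocount of 1 was added to the normalized counts, only 4 ugt genes were called. Among those lost were ugt-63 and ugt-23, at log2 folds of 2.25 and 2.24. Over all members 16 calls then remained, with 6 cyp and 6 gst genes among them.

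A smaller group of ugt genes did not follow. The ugt-58 gene (II, 9584379 to 9586784) had 43 counts in YBT7 and 28 in WT, a ratio of 1.02 (0.622 to 1.71). The ugt-45 gene had 28 and 33 counts in YBT7 and WT, a ratio of 0.566 (0.329 to 0.965) wholly below 1, and ugt-28 had 13 in YBT7 and 17 in WT, a ratio of 0.510 (0.228 to 1.11). On the other hand, 32 of the 36 detected ugt genes below the limit for measurement had the higher normalized count in YBT7, and as a group they held 153 counts in YBT7 and 21 in WT, a ratio of 4.86 (3.07 to 8.07). The cluster of ugt-3, ugt-4, ugt-5 and ugt-6 on chromosome V, in which no gene was measured, had 24 counts in YBT7 and 2 in WT.

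**Figure D4:**
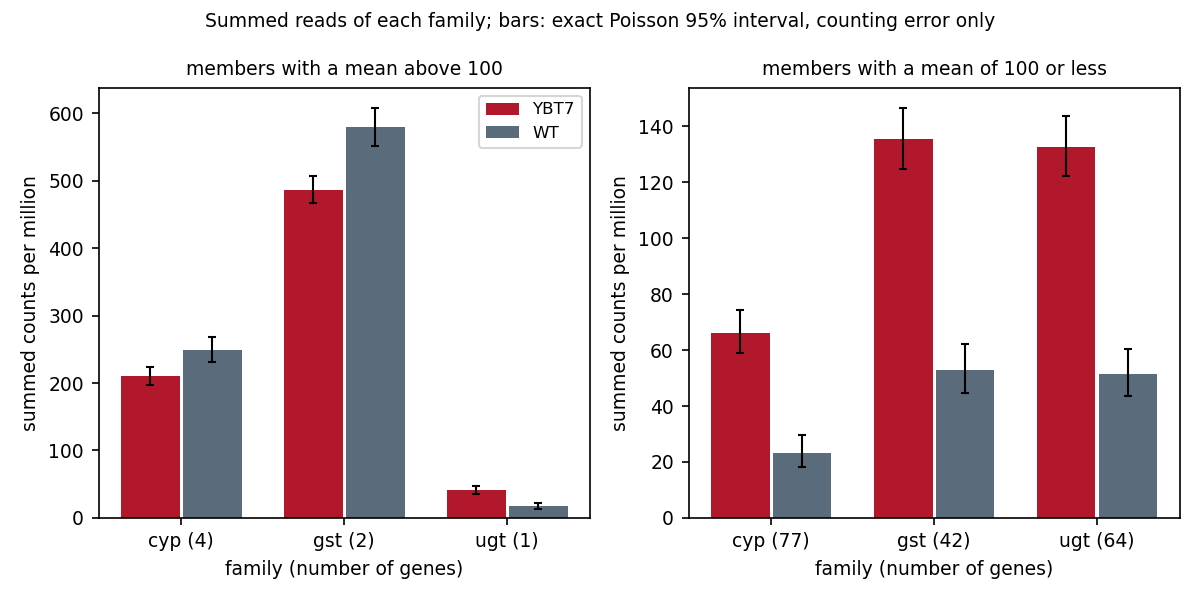
Summed CPM of each family in YBT7 (red, left) and WT (grey, right), for members with a mean normalized count above 100 (left panel) and of 100 or less (right panel), with exact Poisson 95% intervals that cover counting error only and the number of genes in brackets. Abundant cyp and gst genes have the lower red bars, and the rarer genes have the higher red bars in all 3 families.

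The 7 members with a mean above 100, which are cyp-31A5, cyp-31A2, cyp-31A3, cyp-44A1, gst-1, gst-7 and ugt-64, held 68.8% of all member counts in YBT7 and 86.9% in WT. Their summed ratio was 0.915 (0.869 to 0.965), and the median of their log2 folds was -0.13, beside -0.12 over the 4456 genes above that mean. The other 183 members held 1514 counts in YBT7 and 367 in WT, a ratio of 2.75 (2.45 to 3.09). No sum over all genes with a mean of 100 or less was taken to set beside it. Rare genes in general also leaned to YBT7, with 1.5 (1.46 to 1.54) over all genes below the limit for measurement. The intervals of the ratio of the rarer members overlapped between the 3 families. They were 2.28 to 3.95 for cyp, 2.25 to 3.23 for gst and 2.26 to 3.26 for ugt genes. Per kilobase of annotated exon the order of levels in YBT7, which differed in part from that in WT, was led by gst-1 and gst-7. The gene gst-1 was at 452 CPM in YBT7 and 574 CPM in WT, and gst-7 was at 199 CPM in YBT7 and 201 CPM in WT. There followed cyp-31A5 (42.5 CPM per kilobase in YBT7 and 55.0 in WT), cyp-31A2 (34.8 in YBT7 and 39.9 in WT), cyp-31A3 (31.3 in YBT7 and 32.7 in WT), cyp-44A1 (28.1 in YBT7 and 35.7 in WT) and ugt-64 (23.2 in YBT7 and 9.62 in WT). The primer was placed at the poly(A) tail, so dividing by length is only a rough correction here.

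By chromosome, 94 of the 190 members lie on V, 39 on II, 25 on IV, 15 on X, 9 on III and 8 on I. Of the 17 measured members on V, 6 were called higher, beside 15.1% of all measured genes of that chromosome, and of the 13 on II, 4 were. On X, 5 of 7 measured members were called higher, beside 18.8% of all measured X-linked genes. They were cyp-43A1 on the linear segment and gst-36, gst-42, ugt-23 and ugt-50 on the internal segment, where 11 members lie and 5 were measured. The measured X-linked members that were not called were cyp-13B2, at 34 counts in YBT7 and 20 in WT (1.13, 0.634 to 2.08), and ugt-46, at 11 counts in YBT7 and 1 in WT (7.33, 1.07 to 316). Background rates were 17.0% on the internal and 20.6% on the linear segment. The other 15 of the 20 called members are autosomal. Of the called members 8 lie in clusters and 12 alone, where 21 and 31 members were measured.

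Lists of partner genes, other oxygenases, UDP-sugar supply and other glutathione genes gave 1 call, with summed ratios near 1 for each list. Of the 9 P450 partners and other oxygenases 5 were measured and 0 called. The P450 reductase gene emb-8 had 587 counts in YBT7 and 345 in WT, a ratio of 1.13 (0.991 to 1.30), and the cytochrome b5 gene cytb-5.2 had 708 in YBT7 and 474 in WT, a ratio of 0.996 (0.885 to 1.1). The other cytochrome b5 gene listed, cytb-5.1, had 108 counts in YBT7 and 36 in WT, a ratio of 2.0 (1.36 to 3.0) wholly above 1, without passing the limit. For the supply of UDP-sugars 4 of 4 genes were measured and 0 called, with sqv-4, the UDP-glucose dehydrogenase gene, at 1274 counts in YBT7 and 1063 in WT, a ratio of 0.799 (0.736 to 0.868). Among 16 other glutathione genes 8 were measured and 1 was called higher. This was gpx-5, for a glutathione peroxidase, at 118 counts in YBT7 and 13 in WT, a ratio of 6.05 (3.41 to 11.7). The kappa-class transferase gene gstk-1 had 41 counts in YBT7 and 9 in WT, a ratio of 3.04 (1.45 to 7.11), and was not called. The first enzyme of glutathione synthesis, gcs-1, had 154 and 143 counts in YBT7 and WT, a ratio of 0.718 (0.568 to 0.908).

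Regulators known to control detoxification genes were lower in YBT7 as a sum. Of 12 such genes 10 were measured and 0 called, 6 had the higher normalized count in YBT7, and the summed ratio was 0.782 (0.731 to 0.837). The transcription factor gene skn-1 had 682 counts in YBT7 and 611 in WT, a ratio of 0.744 (0.666 to 0.831), and wdr-23, whose product represses SKN-1, had 281 in YBT7 and 275 in WT, a ratio of 0.681 (0.575 to 0.807). The nuclear receptor gene nhr-8, known from drug resistance, had 13 and 2 counts in YBT7 and WT, a ratio of 4.33 (0.981 to 39.6). Of the export pumps that follow conjugation, 4 of 8 mrp genes were measured and 0 called, with a summed ratio of 0.624 (0.572 to 0.681), and 1 of 15 pgp genes was measured and not called, with a summed ratio of 1.83 (1.08 to 3.23).

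The marker lists of tissues outside the gonad had higher sums in YBT7, by ratios from 1.16 for neurons to 12.0 for the intestine. For the intestine, 12 of 13 measured markers of 15 were called higher, and the list summed to a ratio of 12.0 (11.5 to 12.4). Without the 6 vitellogenin genes it summed to 1363 CPM in YBT7 and 120 CPM in WT, a ratio of 11.9 (10.7 to 13.3). Of 9 hypodermis and cuticle markers 6 were measured and 3 called higher (ratio 6.84, 6.34 to 7.38). These 3 were the collagen genes col-19, col-119 and col-140, and col-119 alone held 5403 of the 7579 counts in YBT7. Of the others measured, elt-3 had 22 counts in YBT7 and 3 in WT. The intervals of lin-26 (0.943, 0.789 to 1.13) and nhr-23 (0.821, 0.628 to 1.07) hold 1. Of 7 body wall muscle markers 5 were called higher (4.80, 4.41 to 5.23). Of 8 neuron markers 2 were called higher (1.16, 1.08 to 1.25). The gene snb-1 held 1596 of their 1961 counts in YBT7, at a ratio of 1.10 (1.02 to 1.20). The normalized count was higher in YBT7 for 6 neuron markers and lower for 2. Of the lower ones, unc-119 had a ratio of 0.562 (0.408 to 0.773), wholly below 1. By contrast the 8 germline markers had 0 calls and a ratio of 0.828 (0.802 to 0.856), and the 5 somatic gonad markers had 0 calls and 1.09 (0.971 to 1.23). The part of these other tissues in the counts of the cyp, gst and ugt genes was not tested. The ratio of 2.75 over the rare members lay between those of the germline and the intestine list, as did the ratios of the other marker lists.

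**Figure D5:**
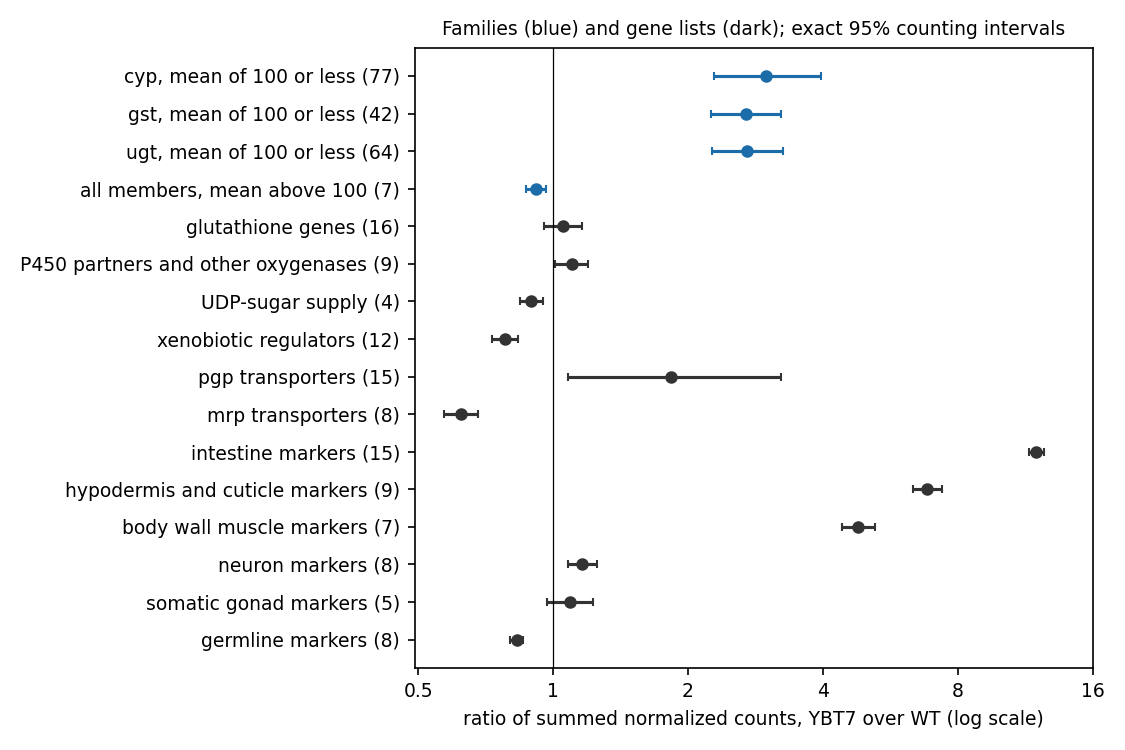
Ratio of summed normalized counts, YBT7 over WT (log axis), with exact 95% counting intervals and the number of genes in brackets. Blue marks the rare members of each family and the abundant members, and dark marks lists of partner or related genes and tissue markers. The rare members lie near 3, the intestine list near 12, and the abundant members, regulators and germline list below 1.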

How the data were processed

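Gonad RNA was reverse transcribed with a poly(T) primer, which included molecular identifiers, and copied by T7 RNA polymerase, which favours transcript ends. Whether identifiers were collapsed is not given in the sources used here, so counts may include amplification copies. According to the authors' methods, cutadapt 1.12 served for trimming, TopHat2 2.1.1 for alignment to the WBcel235 assembly, and HTSeq 0.6.0 with default parameters, which use strand and leave out reads placed at several sites, for counting. Whether that strand setting matched the reads of these libraries is not given in the sources used here, so counts of genes that overlap on opposite strands are uncertain. The deposited raw counts of both libraries were used. The 2 columns of normalized counts and the authors' DESeq2 (1.12.4) mean, fold and decision columns were not used.

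Size factors were medians of ratios over 10603 genes with a count in both libraries and at least 3 counts in all. The call rule is stated in the report. Ratios carry exact conditional, shares exact binomial and levels exact Poisson intervals at 95%. In counts simulated for 10344 genes, 200 of 200 genes changed 8-fold, all with base levels of at least 20 counts, were called, as were 2 of 10144 unchanged genes. Folds against 0 use the floor of 3 counts.

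All 190 members overlap their own gene in Ensembl release 115 (15 at identical coordinates), where 184 are protein coding and 6 pseudogenes. Exon lengths and overlaps come from it, and coordinates from the deposited table.

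Members and lists were chosen with earlier results of these data known. The lists were written from general knowledge. Named genes were, per family, the up to 6 called higher with the largest lower limit of the fold, up to 3 called lower and the 3 with the highest mean, every called member on X, and 8 with known roles. Other genes were named after their values were seen. Protein identities and promoter motifs were not analysed here. Alternatives were TMM and upper quartile factors from edgeR (4.0.16, R 4.3.3), total counts, autosomal size factors, other minimum means, fixed fold limits and a pseudocount. Scripts ran in Python 3.11.15 (scipy 1.17.1, pandas 2.3.3, numpy 2.4.6) and plots were drawn with matplotlib 3.10.9.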

Additional observations from a re-analysis of the deposited data

How the results depend on the processing

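No paired analysis was possible because there is 1 library per strain. For the 28 named members, 23 kept direction and call under all 6 alternatives, which were other scalings and a pseudocount. The exceptions were cyp-31A3 (log2 fold of -0.015 with upper quartile factors and -0.064 with total counts), gst-7 (-0.013) and ugt-58 (-0.037) with total counts, and ugt-63 and ugt-23, which lost their calls with a pseudocount of 1. Size factors over genes with at least 10 counts in each library shifted every fold by 0.11 on the log2 scale, the largest shift. The median over all measured genes was then 0.086, and it was 0.021 with TMM, -0.051 with upper quartile factors, -0.10 with total counts, -0.068 for means above 10 and -0.093 for means above 20.

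Counts of members called higher depended on the limits. With a mean above 10 there were 12 of 31 measured members, 1 of them a cyp gene, beside 630 of 7501 genes. With a mean above 20 there were 4 of 20, of which 0 cyp, 2 gst and 2 ugt genes, beside 448 of 6500 genes. The median log2 fold over measured cyp genes, 2.05 with folds against 0 ranked highest and 1.38 with them at the floor, was -0.060 with a mean above 10 and -0.13 above 20, and over all members it was 0.36 above 20. A fixed limit of 2-fold called 36 of the 52 measured members, with 11 gst and 15 ugt genes. With no minimum mean and a 4-fold limit, 79 of 146 were higher (29 cyp, 16 gst and 34 ugt) and 12 lower (7, 3 and 2). A pseudocount of 1 left 4 ugt genes. Over all genes, calls were 448 higher and 50 lower of 6500 for means above 20. They were 1482 and 398 of 8618 at 2-fold, and 4060 and 1547 of 15474 with no minimum. The other 133 summary values stayed within the limits set for them. Depth limits the rare members, since 20 of the 52 intervals of measured members hold a ratio of 1.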

Other observations

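Related oxidoreductase families, taken by symbol, also held genes nearly absent from WT. Of 13 aldehyde dehydrogenase genes (alh) 11 were measured and 3 called higher, with alh-12 at 64 counts in YBT7 and 7 in WT, a ratio of 6.10 (2.79 to 15.8), and alh-10 and alh-13 at 23 and 13 counts in YBT7 and 0 in WT. Abundant alh genes were also on the YBT7 side without a call, alh-8 at 1091 counts in YBT7 and 402 in WT, a ratio of 1.81 (1.61 to 2.03). Of 30 short-chain dehydrogenase genes (dhs) 21 were measured and 7 called higher. The alh and dhs shares stand beside 9.55% of all measured genes, and 17.1% of those with a mean of 5 to 50. As with the members, a measured gene at 0 in WT had to be called. Among the called dhs genes dhs-3, for a protein of intestinal lipid droplets, had 111 counts in YBT7 and 15 in WT (4.93, 2.87 to 9.11). Another, dhs-28, for an enzyme of peroxisomal fatty acid shortening in ascaroside synthesis, had 30 in YBT7 and 1 in WT (20, 3.32 to 816). The dhs genes with a mean above 100 were not called, with dhs-13 at 757 counts in YBT7 and 598 in WT (0.844, 0.757 to 0.941).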
